A study of Mus musculus with 4 samples.

Results

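Centrosomal genes were followed in mouse bone marrow cultures that differentiated towards macrophages in space or on the ground. The members are the genes of centrosomal proteins named Cep with a number, the gamma-tubulin complex genes Tubgcp2 to Tubgcp6, and Pcnt, Ninl, Cntrob, Cntln and Cdk5rap2. Cep55, a gene of cytokinesis, was left out, and Cep85 is described apart from the others. By their single gene symbol in the platform annotation, 87 of 45037 probe sets belonged to these genes, and they covered 42 of 18193 genes. The set was drawn up, and Cep85 set apart, with the difference between space flight and ground control already known, so values of that difference are given as a description.

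The centrosome is the main microtubule organising centre of an animal cell and is built from a pair of centrioles in a matrix called the pericentriolar material. Rings of gamma-tubulin and its complex proteins, held in that matrix, start new microtubules. Centrioles are copied during each cell cycle, and in cells that leave the cycle the older centriole can dock at the membrane and carry a cilium. Blood cells as a rule have no primary cilium, while macrophages use centrosomal microtubules for transport and shape.

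The cells were marrow of 21 C57BL/6 mice older than 8 weeks, combined into 1 pool and grown in sealed glass barrels with macrophage colony-stimulating factor (M-CSF, 1.5 µg/ml) at 37 °C. Cells of the space flight group were flown on a shuttle, and those of the ground control group stayed on Earth under a matched temperature and handling schedule. Both groups carry no mutation or drug by the labels, had fresh medium mixed in on culture day 6 and were lysed on culture day 15, which was day 14 of the flight. Each group has 2 arrays, and each array holds RNA of a separate pool of 2 barrels. Of 4 such pools per group, those with the best RNA went onto arrays, and all 4 RNAs used were still degraded, with an integrity number of 3. The arrays read transcripts near their 3' end after 2 rounds of amplification.

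The macrophage genes Csf1r, Cd68 and Lyz2 were bright on every array, at log2 values from 14.73 to 15.33. Of 11 measured macrophage markers, 6 lay lower in space flight and 5 higher, with a median difference of −0.06. An unadjusted p under 0.05 was found for 5 lower ones, Csf1r and Cd68 among them, and for 1 higher one, where 7.32% and 6.88% of all measured genes had one; 0 passed limma's adjusted test. Markers of neutrophils and of erythroid cells were also present, and most were brighter in space flight. Of 13 measured neutrophil markers, 12 lay higher and 1, Mmp8, lower. An unadjusted p under 0.05 in limma was found for 11 of the higher ones and for Mmp8. Camp and Ngp passed limma's adjusted test as higher, as 0.0449% of all measured genes did. Of 11 listed erythroid markers, 7 were found on the array and measured. Of these 7, 5 lay higher and 2, Gata1 and Epor, lower. For 4 of the higher ones and 0 lower ones the unadjusted p was under 0.05, and 0 passed the adjusted test. Over all measured genes, 51.2% lay higher. The brightest erythroid marker, Slc4a1, read 12.42 and 13.39 in space flight and 10.05 and 11.43 in ground control. The summed intensity of 13 neutrophil markers ran from 80339 to 146005 in space flight and from 46763 to 51949 in ground control, and that of 7 erythroid markers from 6426 to 13122 and from 1676 to 3407. The summed intensity of 5 B cell markers ran from 355 to 601 in space flight and from 164 to 284 in ground control. Only 1 of these 5, Cd79a, reached the dim limit defined below, with a difference of 0.84. Sums of stromal markers and of mast cell and basophil markers overlapped between the groups. The sum of 4 T and NK cell markers ran from 60.3 to 137.7 in space flight and from 40.5 to 59.4 in ground control. None of these T and NK cell markers reached the dim limit. None of the markers was at 0. Space flight array 2 stood apart in RNA quality, with a ratio of 3' to 5' signal of Gapdh of 15.2 against 3.33 to 4.13 on the other 3 arrays. The same ratio of Actb was higher on both space flight arrays, at 3.08 and 4.91 on arrays 1 and 2, against 2.30 and 2.84 in ground control. The part of cell makeup and RNA quality in the values below was not tested. In such bulk cultures, fewer cells of a type and less RNA per cell cannot be told apart.

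The values are log2 intensities (with 16 added before the logarithm, which understates differences of dim genes) after quantile normalization, and a difference is the space flight mean less that of ground control, so 1 stands for a doubling. A gene is represented by its brightest probe set. It is called measured when the mean of that probe set over the 4 arrays reached 6.40, the median of all probe sets, named here the dim limit. Of the 42 genes, 38 were measured (90.5%), against 61.2% of all genes on the array. Cep135, Cep250, Cep72 and Tubgcp6 were not. Of the 87 probe sets, 58 reached the limit. Levels of different probe sets are not compared with each other, since each binds its target with its own strength.

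Promoter windows were found in RefSeq (GRCm38.p6) for 36 of the 42 genes, each reaching from 250 bases before to 50 after the annotated start. They are shown for Cep85, the member with the highest difference, and for Cdk5rap2, the measured member with the lowest. Pcnt is shown as a member with matches to 2 kinds of motif. Cep112, Cep152, Cep164 and Cep89 also hold matches to 2 kinds, and Cep295 to every kind named below. Capitals mark matches, on either strand, to the CCAAT box (CCAAT), to the cell cycle homology region CHR (TTTGAA) and to an E2F site (GGCGGGAA). Both elements named last are known from promoters of genes that follow the cell cycle.
Cep85 (chr4:134187036-134187335, minus strand): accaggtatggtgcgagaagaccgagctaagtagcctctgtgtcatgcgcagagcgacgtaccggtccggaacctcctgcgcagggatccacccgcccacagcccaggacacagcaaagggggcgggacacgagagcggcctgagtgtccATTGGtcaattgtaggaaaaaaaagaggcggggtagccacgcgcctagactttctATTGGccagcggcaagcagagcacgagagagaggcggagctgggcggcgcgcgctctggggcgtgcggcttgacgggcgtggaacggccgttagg
Cdk5rap2 (chr4:70410386-70410685, minus strand): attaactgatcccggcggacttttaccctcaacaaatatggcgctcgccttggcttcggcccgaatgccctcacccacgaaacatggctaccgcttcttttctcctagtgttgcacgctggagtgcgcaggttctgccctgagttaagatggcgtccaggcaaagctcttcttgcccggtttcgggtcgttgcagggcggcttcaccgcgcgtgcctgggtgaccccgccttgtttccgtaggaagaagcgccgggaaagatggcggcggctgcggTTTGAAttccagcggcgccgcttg
Pcnt (chr10:76442863-76443162, minus strand): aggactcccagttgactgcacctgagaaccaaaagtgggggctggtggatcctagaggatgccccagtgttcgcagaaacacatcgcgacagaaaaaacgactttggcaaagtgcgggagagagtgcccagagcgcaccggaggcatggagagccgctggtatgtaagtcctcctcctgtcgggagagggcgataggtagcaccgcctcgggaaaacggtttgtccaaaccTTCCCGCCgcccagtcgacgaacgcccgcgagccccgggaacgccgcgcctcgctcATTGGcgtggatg
The Cep85 window holds 2 CCAAT boxes, that of Cdk5rap2 1 CHR match near its end, and that of Pcnt 1 E2F match and 1 CCAAT box. Over the members, CCAAT occurred in the windows of 16 of 36 genes (44.4%) and of 41.1% of all 27025 genes with a window. TTTGAA occurred for 8 of 36 (22.2%) and 20.2% of all genes. GGCGGGAA occurred for 7 of 36 members (19.4%), namely Cep112, Cep152, Cep295, Cep44, Cep70, Cntln and Pcnt, and for 2.52% of all genes. None of these motifs contains another. The windows of members were richer in G and C, with a median of 61.7% against 52.7% over all windows, and the part of base composition in these shares was not tested. The 27025 genes were not limited to those on the array, and the part of that was not tested either. A match is a run of letters and not a measured site, and which start site was in use in these cells was not measured.

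Cep85, which restrains the centrosomal kinase Nek2 and works with Stil in centriole duplication, gave different readings on its 2 probe sets. The brighter one, 1432391_at in the files, had deposited intensities of 2543 and 2462 on space flight arrays 1 and 2, and of 547 and 411 on ground control arrays 1 and 2. After normalization these were 11.30 and 11.33 in space flight and 9.09 and 8.77 in ground control. The space flight arrays lay above both ground control arrays by more than the spread within either group. The group means were 11.32 ± 0.022 and 8.93 ± 0.23 (SD, n = 2), a difference of 2.38 ± 0.28 (SE) or 5.21-fold. This was 1 of 7 measured genes of 11141 (0.0628%) at an adjusted p under 0.05 in limma, and it was set apart for that reason. It ranked 10th by size of difference. In limma's test of all 45037 probe sets, where 0 passed, the adjusted p of this probe set was 0.062.

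The other probe set of Cep85, 1451212_at, had deposited intensities of 206 and 112 in space flight and of 201 and 109 in ground control. Its normalized values were 7.79 and 6.78 in space flight and 7.74 and 7.05 in ground control. Here array 1 was the higher one in each group and the groups overlapped almost completely. Its difference was −0.11 ± 0.56 (SE), while it too lay above the dim limit on all 4 arrays. Both probe sets are of the maker's class for a single transcript, and the sources used here do not give where in the gene each of them lies. With the mean of both probe sets, Cep85 stood at 1.14 and no longer passed. Cep85 also did not pass with each array shifted to 1 median, without an intensity trend, or with no filter on dim probe sets. Passing under other settings is no support, since Cep85 was set apart by this same difference on these 4 arrays.

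Among the other 37 measured members, 0 passed limma's test at an adjusted p under 0.05 as higher and 0 as lower, against 0.0449% and 0.018% of all measured genes. The 41 members without Cep85, dim ones included, have 85 probe sets, and 0 of these passed when all 45037 probe sets were tested, where 0 of all did. At an unadjusted p under 0.05 there were 5 of the 85, 2 higher and 3 lower. Over all 45037 probe sets, 8.74% had such a p, 4.14% as higher and 4.6% as lower. By gene, 4 of 37 had an unadjusted p under 0.05 (10.8%), against 14.2% of all measured genes. Cep164 and Cep43 stood higher, where 6.88% of all did, and Cdk5rap2 and Tubgcp4 lower, where 7.32% did.

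The median difference of the 37 was −0.15, against 0.015 over all measured genes. Of the 37, 15 stood above 0 and 22 below, while 51.2% of all measured genes stood above 0. The values ran from −1.75 to 0.95, and 23 of the 37 were under 0.5 in size. Both space flight values lay above both ground control values for 8 members and below for 12. The groups thus did not overlap for 54.1% of members and for 45.5% of all measured genes. The difference between replicates had an SD over members of 0.70 in space flight and 0.38 in ground control, against 0.70 and 0.47 over all measured genes. With 2 arrays a group, the smallest two-sided p of an exact permutation test is 0.333.

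**Figure D1:**
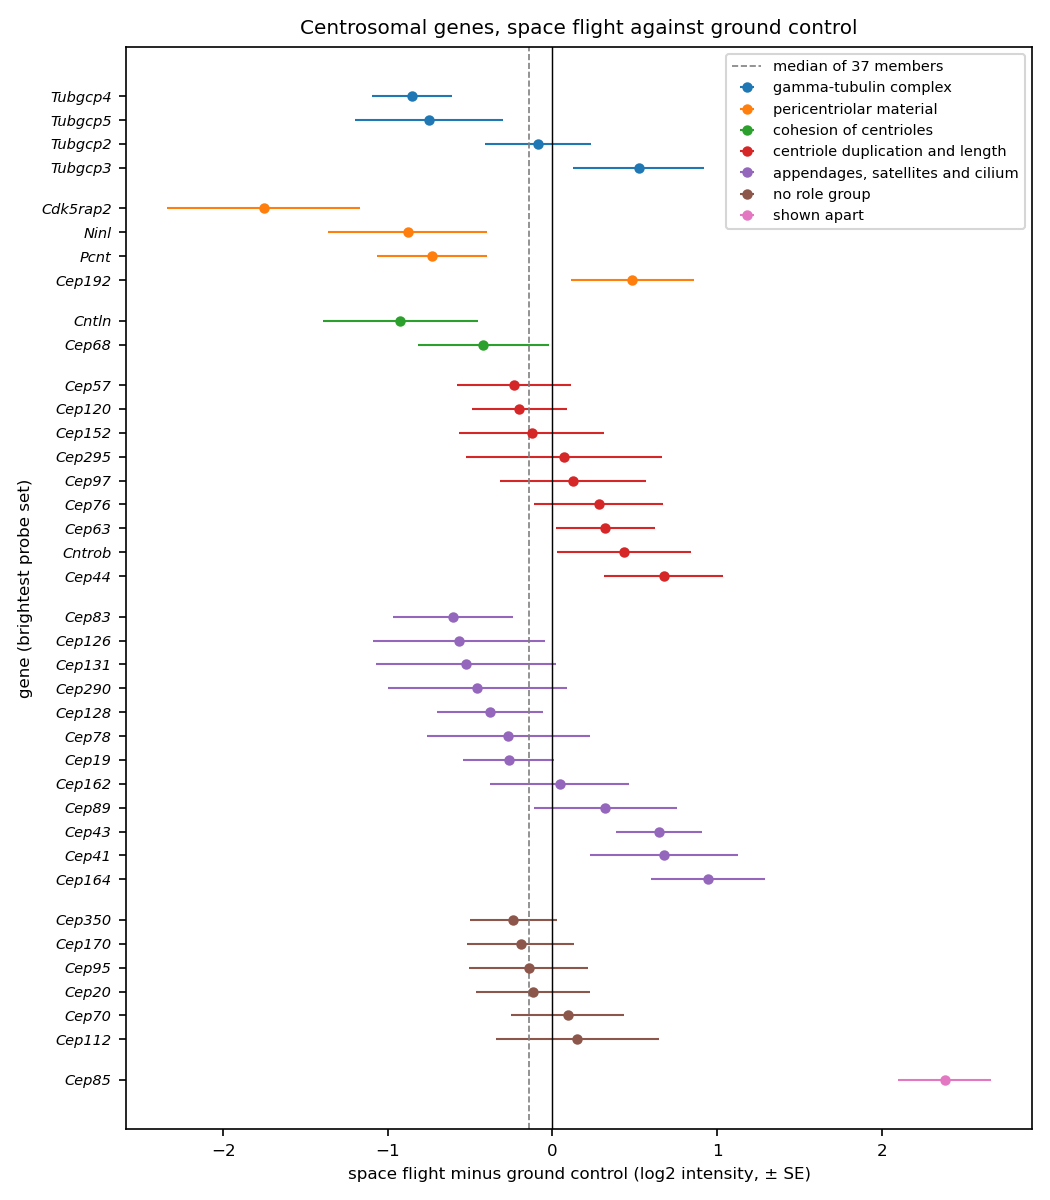
Difference between space flight and ground control (log2 intensity, horizontal axis) for the 38 measured members, grouped by role on the vertical axis; points are limma estimates on the brightest probe set with bars of 1 SE, and the dashed line is the median of the 37 members without Cep85, at −0.15. Cep85 stands at 2.38 and the others between −1.75 and 0.95.

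The gamma-tubulin complex genes stood on both sides of 0. Tubgcp4, a subunit of the full ring, was lower in space flight on all 3 of its probe sets. Its brightest one read 10.65 and 10.87 in space flight and 11.56 and 11.67 in ground control. Both space flight arrays were lower, with no overlap, at a difference of −0.85 ± 0.24 (SE), a level 1.80-fold higher in ground control. The second probe set stood at −0.66 ± 0.29 (SE), also without overlap. The third stood at −1.28 ± 0.79 (SE), with 9.33 and 6.44 in space flight and 9.48 and 8.84 in ground control, and space flight array 2 was the lowest of the 4.

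Tubgcp5, another subunit of the full ring, read 8.54 and 7.20 in space flight and 8.70 and 8.54 in ground control. Space flight array 1 and ground control array 2 were nearly equal, and space flight array 2 was the low one. The difference was −0.75 ± 0.45 (SE), −0.084 without space flight array 2 and −1.41 without space flight array 1; its 2 other probe sets were below the dim limit. Tubgcp2 and Tubgcp3 form the core of the small gamma-tubulin complex. Tubgcp2 stood at −0.09 ± 0.32 (SE) with overlapping groups, and Tubgcp3 at 0.52 ± 0.40 (SE), where ground control array 1, at 7.84, nearly met space flight array 1, at 7.88. Tubgcp6 was below the dim limit, with 6.51 and 6.09 in space flight and 4.73 and 6.00 in ground control. Gamma-tubulin itself, measured as Tubg1, read 8.27 and 9.72 in space flight and 9.20 and 8.92 in ground control. Its space flight values enclosed those of ground control, at a difference of −0.06 ± 0.44 (SE).

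Of the 4 genes of the pericentriolar material, 3 stood lower in space flight and 1 higher, and groups did not overlap for any of them on the brightest probe set, as for 45.5% of all measured genes. Cdk5rap2, which binds the gamma-tubulin ring and activates it, read 6.89 and 5.26 in space flight and 7.69 and 7.97 in ground control. Both space flight arrays were lower but differed from each other by more than 1, and array 2 was under the dim limit. The means were 6.07 ± 1.15 and 7.83 ± 0.19 (SD, n = 2), and the difference of −1.75 ± 0.58 (SE) became −1.00 without space flight array 2 and −2.55 without space flight array 1. Its 2 other probe sets, below the dim limit, stood at −0.30 and −0.18.

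Pcnt encodes pericentrin, the large scaffold of the matrix. Its brightest probe set read 8.11 and 8.61 in space flight and 9.06 and 9.12 in ground control, without overlap, at −0.73 ± 0.33 (SE), and at −0.48 without space flight array 1. This probe set is of the class that may bind transcripts of other genes. The other one stood at −0.48 ± 0.49 (SE) and overlapped, since ground control array 2, at 7.61, lay between the space flight values of 7.55 and 7.85. Ninl, the ninein-like protein that helps anchor microtubules, read 6.46 and 6.54 in space flight and 7.71 and 7.04 in ground control. Its space flight values sat at the dim limit. Its difference was −0.88 ± 0.48 (SE), and −0.52 without ground control array 1. Cep192, which recruits matrix and kinases to the centriole, stood higher at 0.48 ± 0.37 (SE), with ground control array 2 at 8.10 just under space flight array 2 at 8.15. Its other probe set, below the dim limit, stood at −0.78 with overlapping groups, and the mean of both at −0.15.

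**Figure D2:**
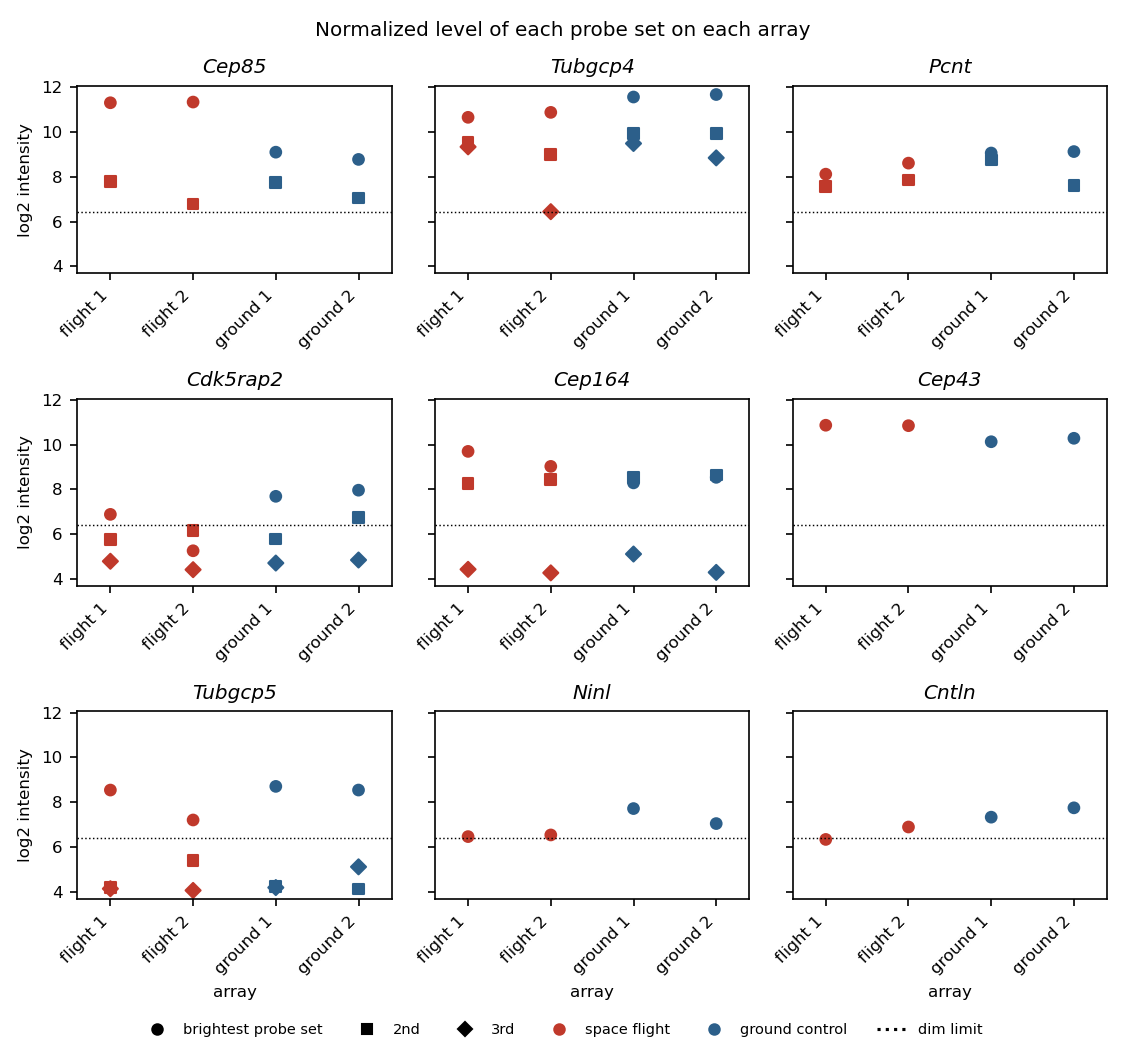
Normalized log2 intensity (vertical axis) on each of the 4 arrays (horizontal axis) for 9 members, with a marker shape for each probe set, red for space flight, blue for ground control and a dotted line at the dim limit of 6.40. The brightest probe set of Cep85 sits at 11.30 and 11.33 in space flight and at 9.09 and 8.77 in ground control, while its other probe set overlaps between groups, and Tubgcp4 is lower in space flight on each of 3 probe sets.

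Genes that hold centrioles together were measured on few probe sets. Cntln, which encodes the linker protein centlein, read 6.34 and 6.89 in space flight and 7.33 and 7.75 in ground control. The groups did not overlap, space flight array 1 was just under the dim limit, and the difference was −0.92 ± 0.47 (SE). Cep68, a component of the fibres between centrioles, stood at −0.42 ± 0.40 (SE) on the brightest of 5 probe sets; the 4 others were below the dim limit and ran from −0.89 to 0.78. Cep250, the anchor of these fibres, was below the dim limit, with overlapping groups and a difference of −0.36.

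The 9 measured genes of centriole duplication and length had a median difference of 0.13, with 6 above 0 and 3 below, and none reached 0.75 in size. Cep63 and Cep152, partners that bring the kinase Plk4 to the centriole, stood at 0.32 ± 0.30 and −0.13 ± 0.44 (SE). Cep120, a protein of centriole elongation, stood at −0.20 ± 0.29 (SE), and Cep97, which caps the growing end, at 0.13 ± 0.44 (SE). All 4 probe sets of Cep97 lay above the dim limit and above 0, from 0.05 to 0.70. Cep76, which limits reduplication, stood at 0.28, Cntrob of the daughter centriole at 0.44, and Cep295, needed for new centrioles to become centrosomes, at 0.07.

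Cep44 and Cep57 show how far the reading depended on the probe set. The brightest probe set of Cep44 stood at 0.67 ± 0.36 (SE) without overlap, while a dimmer one read 8.11 and 4.54 in space flight and 8.14 and 6.95 in ground control, a difference of −1.22 ± 1.06 (SE) with array 2 the low one in each group. For Cep57 both were lower, the brightest at −0.23 ± 0.35 (SE) with overlap and the other at −1.49 ± 0.46 (SE). That other probe set of Cep57 read 7.30 and 6.59 in space flight and 8.57 and 8.29 in ground control, without overlap. Its brightest probe set read 8.07 and 8.50 in space flight and 8.63 and 8.40 in ground control. Cep135, of the centriole core, was below the dim limit on all 4 arrays, with a difference of −1.06.

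Genes of appendages, satellites and the cilium base were the largest group, with 12 measured members, 5 above 0 and 7 below, and a median of −0.27. Cep164, which builds the distal appendages that dock a centriole at the membrane, read 9.70 and 9.03 in space flight and 8.29 and 8.54 in ground control. Both space flight arrays were higher, and the difference of 0.95 ± 0.35 (SE) was the highest of the 37. Without space flight array 1 it was 0.61, below Cep44 at 0.92, and with the mean of its probe sets 0.12. Its second probe set read 8.26 and 8.46 in space flight and 8.52 and 8.64 in ground control, with both space flight arrays slightly lower, at −0.22 ± 0.35 (SE). The 2 probe sets thus placed the groups in opposite order, the second by less than its SE.

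Cep43, formerly Fgfr1op, is a partner of Cep350 and Cep19 at the centriole. It read 10.86 and 10.84 in space flight and 10.13 and 10.28 in ground control on its single probe set. Replicates lay close together in each group, both space flight arrays were higher, and the difference was 0.65 ± 0.26 (SE), 1.57-fold. Its partners stood on the other side of 0, Cep350 at −0.24 ± 0.26 and Cep19 at −0.27 ± 0.28 (SE). A dimmer probe set of Cep350 stood at −1.11 ± 0.53 (SE) without overlap.

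The other distal appendage genes varied in sign. Cep83, at the base of the appendages, stood at −0.60 ± 0.36 (SE) on the brightest probe set and at 0.36 ± 0.50 (SE) on the next, both with overlapping groups, and Cep89 at 0.32 ± 0.43 (SE). Cep128, of the subdistal appendages, was lower on all 3 bright probe sets, at −0.38, −0.59 and −1.15, 2 of them of classes that may bind other transcripts. The satellite genes Cep131 and Cep290 stood at −0.53 ± 0.55 and −0.46 ± 0.54 (SE), and Cep72 was below the dim limit. Cep41, a gene of tubulin glutamylation in cilia, stood at 0.68 ± 0.45 (SE) without overlap, but its 3 other probe sets were below the dim limit and differed in sign. Cep126, Cep78 and Cep162 stood at −0.57, −0.27 and 0.04, all with overlapping groups on the brightest probe set. The 6 members without a role group, Cep350, Cep170, Cep95, Cep20, Cep70 and Cep112, lay between −0.24 and 0.15, and the groups overlapped for all of them on the brightest probe set.

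Of the 15 members with 2 or more probe sets above the dim limit, 3 were higher in space flight on all of these (Cep97, Cep112 and Cep76), 6 were lower on all (Tubgcp4, Pcnt, Cep128, Cep350, Cep57 and Cep170), and 6 had opposite signs (Cep85, Cep164, Cep83, Cep44, Cep95 and Cep162). The widest gap was that of Cep85, from −0.11 to 2.38. That of Cep44, from −1.22 to 0.67, came next, and Cep170 had probe sets nearest to each other, at −0.19 and −0.22. Probe sets of 1 gene share the RNA of the same arrays and are not replicates of the comparison. Both probe sets of Cep112 above the dim limit are of classes that may bind other transcripts. The matching counts over all genes were not computed.

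**Figure D3:**
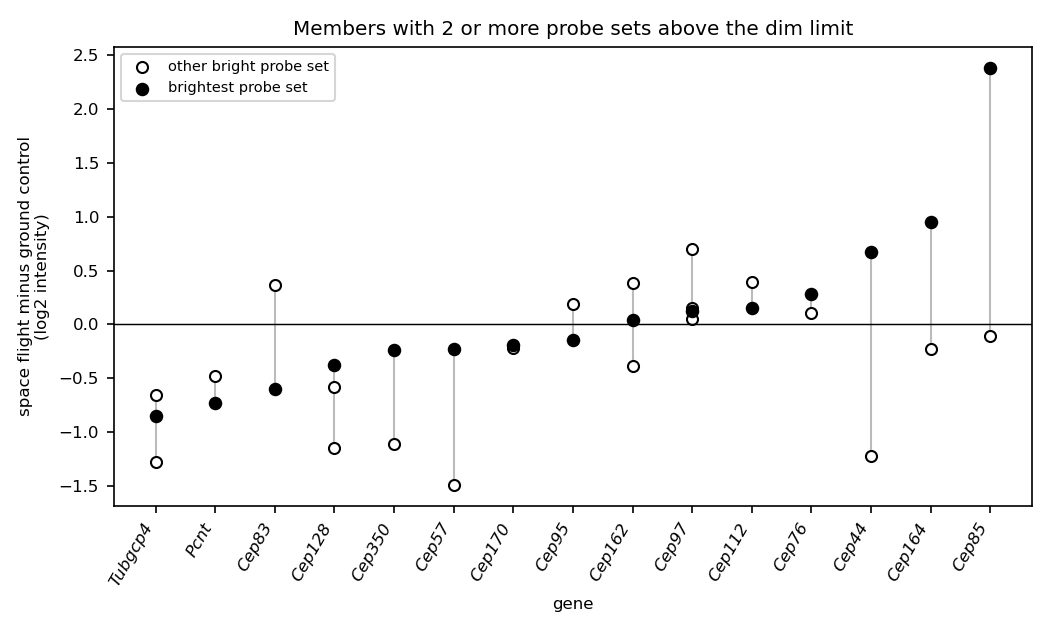
Difference between space flight and ground control (log2 intensity, vertical axis) for each probe set above the dim limit of the 15 members that have at least 2 (horizontal axis), with the brightest filled and the others open. The probe sets of 6 genes lie on both sides of 0, most widely for Cep85 at 2.38 and −0.11.

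Other genes of the centrosome, from lists of textbook roles, were set beside the members. Of 14 measured genes of gamma-tubulin and its recruitment, 0 passed limma's test in either direction, 5 stood above 0 and 9 below, the median was −0.16, and 1 had an unadjusted p under 0.05, where 14.2% of all measured genes did, the share against which the other lists' counts stand too. That gene, Nin, named here after its value was seen, encodes the microtubule anchor ninein and stood at −1.19 ± 0.34 (SE). Of 12 measured genes of centriole assembly, 0 passed, with a median of −0.20 and 0 at an unadjusted p under 0.05. The duplication kinase Plk4 stood at −0.83 ± 0.49 (SE), with space flight array 1 at 6.82 and the other 3 arrays from 8.30 to 8.49. Its groups overlapped. Its partner Stil, below the dim limit, stood at 0.65. Of 14 genes of centrosome maturation, cohesion and spindle poles 0 passed, with a median of −0.16 and 1 at an unadjusted p under 0.05. This was Nek6, also named after its value was seen, at −0.84 ± 0.31 (SE). Nek2, the kinase that Cep85 restrains, stood at 0.64 ± 0.56 (SE), with ground control array 1 at 5.77 and the other 3 arrays from 6.44 to 6.96. Aurka and Plk1, kinases of mitotic centrosomes, were below the dim limit and so are not in the list's median. Their differences were 0.006 and 1.04. Of 15 genes of satellites and the cilium base 0 passed, with a median of −0.15 and 1 at an unadjusted p under 0.05. This was Ofd1, named after its value was seen too, at −1.25 ± 0.40 (SE). Nin, Nek6 and Ofd1 were all lower, where 7.32% of all measured genes were lower at that p in limma. The satellite scaffold Pcm1 stood at 0.65 ± 0.49 (SE) with overlapping groups. Ground control array 1 was at 7.82 and the other 3 arrays were from 9.26 to 9.56. Another 3 genes on that list, Fgfr1op, Azi1 and Ccdc41, are older names of the members Cep43, Cep131 and Cep83.

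Genes of mitosis had a median of 0.28 over 15 measured genes, with 10 above 0 and 5 below; 0 passed limma's test, and 3 higher and 1 lower had an unadjusted p under 0.05, where 6.88% and 7.32% of all measured genes did. The proliferation marker Mki67 stood at 0.70 ± 0.44 (SE) with overlapping groups. Space flight array 2 was at 9.71 and the other 3 arrays were from 8.28 to 8.37. Cep55, whose product acts at the midbody when daughter cells part, read 7.30 and 6.47 in space flight and 7.29 and 7.85 in ground control. Its difference was −0.69 ± 0.48 (SE) with overlapping groups. Its other probe set was below the dim limit. The summed intensity of the 23 listed mitosis genes found on the array was 6045 and 6950 on space flight arrays 1 and 2, and 3705 and 4531 on ground control arrays 1 and 2. Of this, Cks2, singled out after its values were seen, made up 2906 and 2497 in space flight and 1081 and 1157 in ground control. Without it the sums were 3139 and 4453 in space flight and 2624 and 3374 in ground control, and the groups overlapped. The medians of the 4 centrosome lists, from −0.20 to −0.15, lay on the same side of 0 as that of the 37 members, while the median of the mitosis genes lay on the other side; these differences between lists were not tested.

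**Figure D4:**
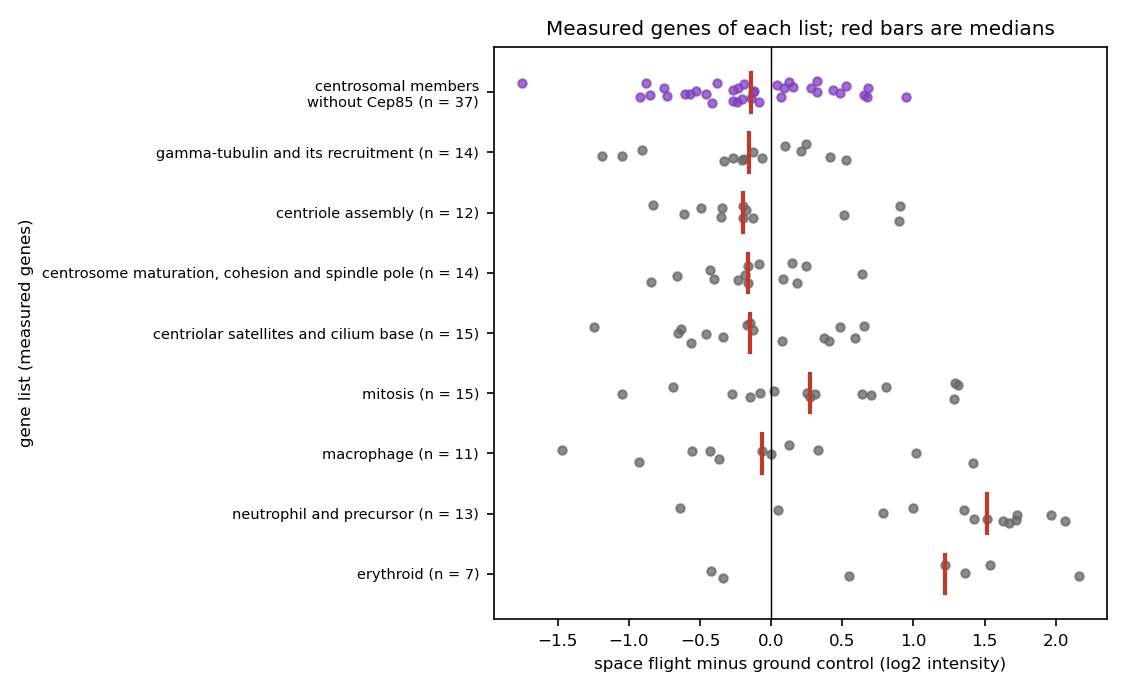
Difference between space flight and ground control (log2 intensity, horizontal axis) for the measured genes of each list (vertical axis), each point a gene and each red bar the median of its list. The 37 members without Cep85 have a median of −0.15, the mitosis genes of 0.28 and the neutrophil markers of 1.51.

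Single arrays weighed on the members' values. Deviations from each gene's mean over the 4 arrays had a median over the 37 members of 0.023 and −0.12 on space flight arrays 1 and 2, and of 0.031 and 0.096 on ground control arrays 1 and 2. Over all measured genes these medians lay between −0.00085 and 0.021. When space flight array 2, which had the high Gapdh ratio, was left out, the members' median was −0.043, and without space flight array 1 it was −0.22. Such a fit takes the spread of the 1 remaining array from the other group. Without space flight array 1, Cdk5rap2, Cep83 and Tubgcp5 passed as lower, with 10.0% of all measured genes past the threshold. Without space flight array 2, Tubgcp4 passed as lower and Cep164 as higher, with 8.08% of all measured genes past it. No member other than Cep85 passed without either ground control array.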

How the data were processed

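Pooled marrow cultures were measured on 4 Affymetrix mouse arrays, 2 per group. The deposited table gives 1 linear intensity per probe set and array; GCOS is named in the submitters' processing notes with its version not stated, and the summarising algorithm is not given in the sources used here. In the deposited intensities, every array had a mean of 500.004 once its top and bottom 2% were set aside, so arrays had been scaled to a common mean. The number of arrays limits precision. Array medians differed by up to 0.385 (log2), so log2(value + 16) was quantile normalized without the 64 control probe sets in R 4.3.3. Probe sets with several symbols (932) or none (9160) named no gene. All 42 member symbols matched RefSeq by gene identifier.

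The groups were compared in limma 3.58.1 (lmFit and eBayes with intensity trend, two-sided, Benjamini-Hochberg, threshold 0.05) on 11141 measured genes, and on all 45037 probe sets for probe sets other than the brightest. Residual degrees of freedom were 2, and 10.4 after moderation. Replicates are separate culture pools from 1 pool of marrow, so spread between animals is not covered. The procedure was run on simulated data with independent noise and set changes larger than those of any member other than Cep85. Such data do not cover effects of single arrays or changes of the members' size. Members, lists and role groups were chosen with earlier results of these data known. Every array's value is given for Cep85, for measured members with a difference of at least 0.75 in size or an unadjusted p under 0.05, for Tubg1 and for Cep55; arrays of other members are given where groups nearly met or probe sets disagreed. Alternatives were other scalings, pseudocounts, filters and probe set choices, no trend, a replicate block and each array left out.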

Additional observations from a re-analysis of the deposited data

How the results depend on the processing

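Over 15 alternatives, of the 37 measured members, 20 kept the sign of their difference wherever they were measured, 34 kept it under the 3 other scalings, and 24 kept it with any array left out. The count of all genes past the threshold was 7 and ran from 9 to 1121 with an array left out; it was 16 with intensities as deposited, 21 with cyclic loess, 12 with a pseudocount of 64, 28 with the dim limit raised by 1, and 0 with each array shifted to 1 median, without a trend, with no dim filter or with the mean of probe sets. In the settings where limma called 0, it gave an unadjusted p under 0.05 for 13.4%, 12.1%, 10.7% and 13.0% of genes, in that order. Arrays were not treated as paired. Deviations of same-numbered arrays had a correlation of 0.057 over measured genes, which does not settle whether the replicate numbers pair them. With the replicate block 433 genes (3.89%) and 0 of the 37 members passed. Members past the threshold were 0, and 0 to 3 with an array left out, and members at an unadjusted p under 0.05 were 4, from 0 to 9 with an array left out and 7 without a trend. Over all genes these shares were 25.2% without space flight array 1, 21.0% without space flight array 2 (where the 9 were found), and 6.79% and 7.92% without ground control arrays 1 and 2. The members' median was −0.15, from −0.22 to −0.043 with an array left out. With each array shifted to 1 median, it was −0.38, when the median of all genes was −0.16, a gap of −0.21 against −0.16 as reported. The brightest probe set of Cep85 stood at 2.38, from 2.20 to 2.55 with an array left out, at 2.16 with a shift to 1 median and at 1.14 with the mean of its probe sets; the other ran from −0.60 to 0.41 with an array left out. Signal near background limits Cdk5rap2, Cntln, Cep126, Cep131, Cep290 and Cep295, which had at least 1 array below the dim limit.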
